A study of Homo sapiens with 15 samples.

Results

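The genes described here are targets and regulators of the transcription factor NRF2 together with enzymes of xenobiotic metabolism, 40 in all, taken as a fixed list of gene symbols. On the array 38 of them had a probe set carrying that symbol alone, 55 probe sets of 22283, while AKR1B1 and FTH1 had none and are not described further. Of the 38, 36 were bright enough to be tested, among 6884 genes tested, and AHR and CYP1A1 were too dim. The cells were A549, a human line that the labels call bronchial and that was derived from a lung adenocarcinoma. Their RNA was hybridised to 15 Affymetrix hgu133a arrays. There were 3 arrays each of cells without treatment at 0 h, cells after 4 h, 12 h and 24 h of the cytokine IL-13, and cells left without treatment for 24 h. The labels give no IL-13 dose, no genotype other than the line itself, and no untreated arrays at 4 h or 12 h, so at those times IL-13 and time in culture cannot be told apart. The labels do not say whether replicates came from separate cultures. All p-values thus cover array-to-array spread alone, part of which may be technical. In bulk RNA, fewer cells expressing a gene and less RNA per cell cannot be told apart.

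NRF2, encoded by NFE2L2, is held low in unstressed cells by KEAP1, which hands it to a ubiquitin ligase. When KEAP1 is modified by oxidants or electrophiles, NRF2 accumulates, pairs with a small MAF protein such as MAFG and binds antioxidant response elements near genes for glutathione synthesis, quinone reduction, NADPH supply and export of conjugates. The aryl hydrocarbon receptor AHR is a second sensor, which binds xenobiotic response elements and drives CYP1A1 and CYP1B1. A549 cells are known to carry an inactivating KEAP1 mutation and to express NRF2 targets at a high level without any stimulus.

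The mean normalized log2 signal of the 36 tested members was 10.08 ± 0.051 at 0 h, 10.16 ± 0.010 at 4 h, 10.21 ± 0.017 at 12 h and 10.14 ± 0.021 at 24 h of IL-13, and 10.16 ± 0.035 in the 24 h control (SD, n = 3 arrays each). The mean over all tested genes lay between 7.90 and 7.91. Quantile normalization gives every array the same distribution of values, so this level all-gene mean was set by the processing. With the deposited scaling the all-gene group means ran from 7.896 at 4 h of IL-13 to 7.934 in the 24 h control. The arrays at 4 h and 12 h of IL-13 and those of the 24 h control all lay above the 3 at 0 h in this mean, by 0.086, 0.13 and 0.088 on average. With the deposited scaling the 24 h control arrays overlapped with 0 h and the 4 h and 12 h arrays did not. The mean difference of 24 h of IL-13 from the 24 h control was -0.024, and it changed sign with the scaling, being 0.17 with arrays scaled to 1 median and 0.042 with scaling on the tested genes. Scaling to 1 median moves all genes of an array alike, so the 0.17 includes a shift shared by all tested genes. With the deposited scaling these 2 groups had means of 10.125 and 10.130 over the members, and 7.898 and 7.934 over all tested genes. No test was made on these means, because the genes were listed with results known.

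**Figure D1:**
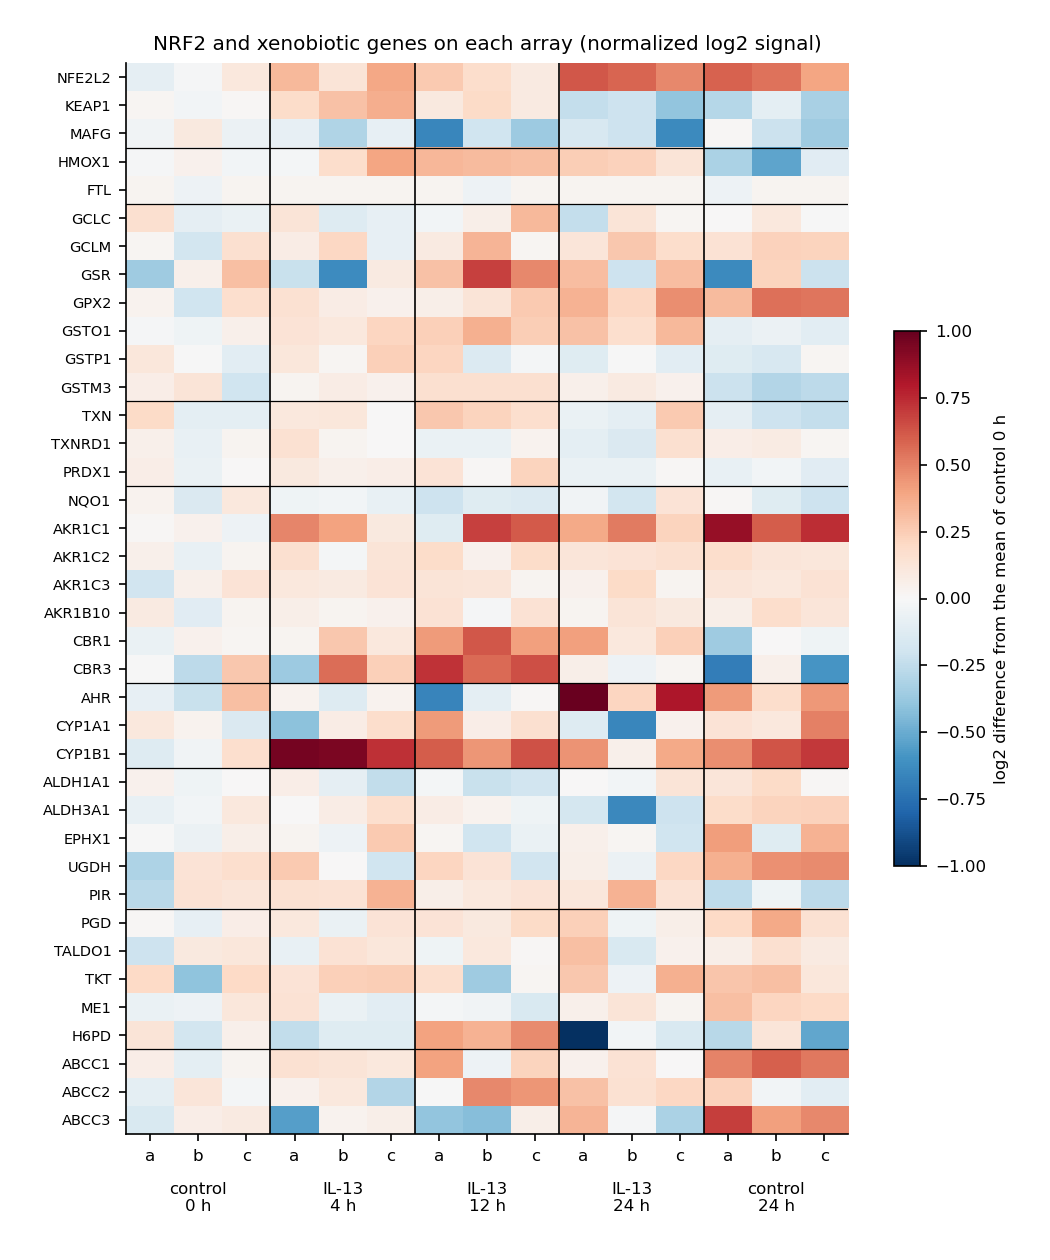
Normalized log2 signal of each measured gene (rows, grouped by role, from regulators at the top to efflux transporters at the bottom) on each of the 15 arrays (columns, letters are replicates), as the difference from the mean of the 3 control arrays at 0 h. Colours stop at -1 and 1. The CYP1B1 row is darkest at 4 h of IL-13, NFE2L2 is raised on all 24 h arrays with and without IL-13, and most rows stay pale throughout.

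**Figure D2:**
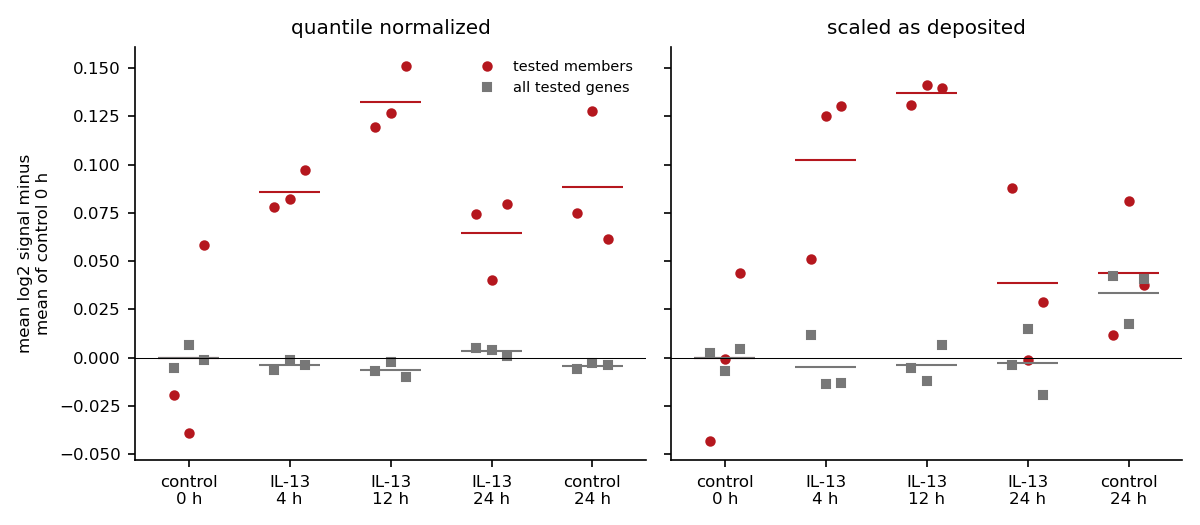
Mean log2 signal over the 36 tested members (circles) and over all 6884 tested genes (squares) on each array, minus the mean of control 0 h; bars are group means, the left panel is quantile normalized and the right panel uses the deposited scaling. On the left the circles of the 12 h arrays average 0.13 above 0 h, and on both panels the circles of 24 h of IL-13 and the 24 h control overlap. The squares on the left are kept level by the normalization.

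The epithelial identity of the cells rested on the keratins: KRT8, KRT18, KRT19, KRT7 and CDH1 were bright enough to test, 5 of 8 measured epithelial markers. EPCAM, CLDN4 and MUC1 were not. The filter lay at a signal of 60.3. Single arrays had 3835 to 6087 for KRT8 and 9605 to 12608 for KRT18, but only 34.3 to 178 for CDH1. The summed signal of all 8 was 18667 to 22020 after 24 h of IL-13 and 18212 to 19495 in the 24 h control. Of 5 measured alveolar type II markers only SFTPC was bright enough to test, with a signal of 42.0 to 123 that spans the filter. Of 10 measured markers of leukocytes, fibroblasts and endothelium CD3E, COL1A1 and PECAM1 were, and PTPRC, CD14, COL3A1, DCN, LUM, VWF and CDH5 were not. Single arrays had 45.8 to 137 for CD3E, 48.6 to 178 for COL1A1 and 48.2 to 83.8 for PECAM1. These signals lie near the filter, so passing it is not read as expression of these markers. The summed signal of all 10 was 279 to 366.5 after 24 h of IL-13 and 386 to 403 in the 24 h control. Against the 24 h control, KRT8 rose by 0.41 and COL1A1 fell by 0.78 after 24 h of IL-13 (adjusted p = 0.00380 and 0.00495). Against 0 h, KRT8 rose 1.45-fold, CDH1 rose 2.18-fold and COL1A1 fell by 0.91 on the log2 scale after 24 h of IL-13 (adjusted p = 0.000281, 0.00258 and 0.00125). CDH1 was dim at 0 h, at 54.3, 53.8 and 75.1. KRT7 fell against 0 h at 12 h of IL-13 by 0.42, at 24 h of IL-13 by 0.40 and in the 24 h control by 0.43 (adjusted p = 0.00508, 0.00526 and 0.00819). The part of these markers in the members' differences was not tested. Median signal per array was 59.3 ± 4.44 after 24 h of IL-13, 69.5 ± 3.10 in the 24 h control and 59.1 ± 1.80 at 0 h. The 3'/5' ratio of beta-actin, a sign of RNA quality, was 1.18 ± 0.081 after 24 h of IL-13, 1.17 ± 0.066 in the 24 h control and 1.001 ± 0.065 at 0 h (SD, n = 3). The same ratio of GAPDH was 0.869 ± 0.026, 0.896 ± 0.021 and 0.881 ± 0.023 in these groups. The beta-actin ratio thus moved with time while that of GAPDH stayed level, and the part of RNA quality in the changes over time was not tested.

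In what follows a gene passed, rose or fell where limma's adjusted p on quantile normalized values was under 0.05, unless another setting is named. Against the 24 h control, 24 h of IL-13 went with higher HMOX1 and GSTO1 and lower ALDH3A1 and ABCC1. HMOX1, the heme-degrading oxygenase, was 1.44-fold higher, GSTO1, an omega-class glutathione transferase, 1.27-fold higher, ALDH3A1, an aldehyde dehydrogenase, 1.47-fold lower and the conjugate exporter ABCC1 1.39-fold lower. These were 2 members rising and 2 falling of 36 tested, against 3.94% of all tested genes rising and 3.07% falling (7.0% in either direction). Of the 36 tested members 32 lay over the 75th percentile of signal. Their mean log2 signal at 0 h was 10.08, against 7.91 for all tested genes. All-gene shares and medians, here and below, are thus not matched to the members for brightness. The median difference of the 36 members was -0.037, and that of all tested genes 0.002. On quantile normalized values the all-gene median is held close to no change by the normalization, here and in the comparisons below. On normalized values 5 members were higher and 7 lower without overlap between the 3 arrays of each group, where 14.2% and 12.1% of all tested genes were. With arrays scaled to 1 median, which moved the median of all tested genes to 0.14, 6 members passed higher (HMOX1, GSTO1, PIR, CBR1, GSTM3 and TXN) and 0 lower. More genes also passed among all those tested with that scaling, as counted in the last section. With each array scaled by its tested genes 4 passed higher (HMOX1, GSTO1, PIR and CBR1) and 0 lower, so the 2 falls depend on the scaling. With the deposited scaling HMOX1, GSTO1 and PIR passed higher and ABCC1 and ALDH3A1 lower.

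**Figure D3:**
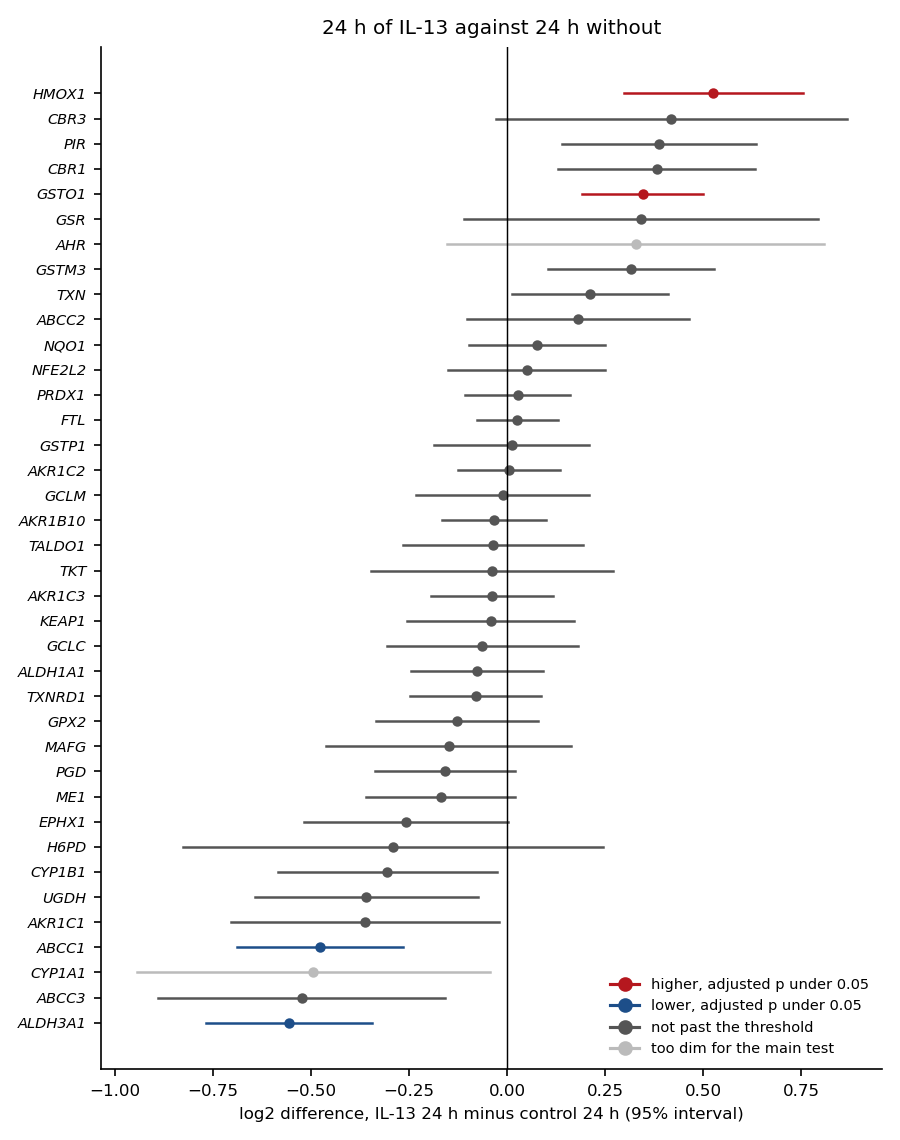
Log2 difference with its 95% interval for each measured gene, 24 h of IL-13 minus the 24 h control, sorted by size. HMOX1 at 0.53 and ALDH3A1 at -0.56 are the outermost points; coloured points passed an adjusted p under 0.05, dark grey points did not, and light grey points are the 2 genes too dim to be tested.

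Untreated cells at 24 h were compared with those at 0 h to show what time in culture did without IL-13. At 24 h without IL-13, against 0 h, 5 of 36 members rose (ABCC1, NFE2L2, GPX2, AKR1C1 and CYP1B1) and 0 fell, where 1.73% of all tested genes rose and 1.89% fell (3.62% in either direction). The median difference was 0.078 over the members and -0.003 over all tested genes, and 11 members were higher and 4 lower without overlap, beside 12.2% and 12.6% of all tested genes. With arrays scaled to 1 median, which moved the median of all tested genes to -0.15, the split became 1 higher (CYP1B1) and 6 lower (HMOX1, TXN, GSTO1, GSTM3, KEAP1 and GSTP1). Here too more of all tested genes passed than in the main setting, as counted in the last section. With scaling on the tested genes it was 4 higher and 1 lower, GPX2 no longer passing and HMOX1 passing as a fall. Only 2 members passed once array b of the 0 h group, or array c of the 24 h control, was left out.

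Early IL-13 times were compared with 0 h. At 4 h only CYP1B1 rose among the members and 0 fell, where 0.349% of all tested genes rose and 0.872% fell (1.22% in either direction). The median difference was 0.073 over the members and 0.004 over all tested genes, with 7 members higher and 1 lower without overlap beside 7.99% and 9.36% of all tested genes. At 12 h CYP1B1, CBR1 and GSTO1 rose and 0 members fell, where 1.55% of all tested genes rose and 2.59% fell (4.14% in either direction). The median difference was then 0.13 over the members and 0.007 over all tested genes, with 9 members higher and 1 lower without overlap beside 11.6% and 12.1% of all tested genes. The 12 h count dropped to 0 when 0 h replicate a, 0 h replicate b or 12 h replicate c was left out, and to 1 when any other of the 6 arrays was. That 1 was CYP1B1 except without 12 h replicate a, where none of the 3 passed and AKR1C1 did (0.65, adjusted p = 0.0102).

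After 24 h of IL-13, against 0 h, NFE2L2, GSTO1 and GPX2 rose and ALDH3A1 fell, where 3.40% of all tested genes rose and 3.47% fell (6.87% in either direction). The median difference was 0.067 over the members and 0.003 over all tested genes, with 8 members higher and 3 lower without overlap beside 13.7% and 13.0% of all tested genes. NFE2L2 kept its call in every setting tried, whereas the other 3 had adjusted p-values between 0.0375 and 0.0476 and lost theirs in 10 to 13 of 19 settings. At 12 h against 4 h of IL-13 limma called 0 members and 0 of all tested genes (0.00%), with 6 members at an unadjusted p under 0.05. Fitted on those groups alone, 4 genes passed and 0 of them were members. Here 7 members were higher and 3 lower without overlap, beside 7.83% and 7.12% of all tested genes. At 24 h against 12 h of IL-13 NFE2L2 rose and KEAP1, H6PD and ALDH3A1 fell, where 4.14% of all tested genes rose and 2.06% fell (6.20% in either direction). Without overlap 2 members were higher and 7 lower, beside 13.3% and 11.7% of all tested genes. Over the 7 comparisons 11 members passed at least once and 25 tested members never did, though 8 of these 25 passed in at least 1 of the other settings tried.

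To show the sequence context in which NRF2 and AHR are known to act, RefSeq promoter windows (GRCh38.p14, 250 bases before to 50 after each start) were searched on both strands for the core of the antioxidant response element, TGACNNNGC, and of the xenobiotic response element, GCGTG. The table held 30 of the 40 members. ABCC1, ABCC3, AKR1B10, ALDH3A1, CBR3, CYP1B1, FTH1, GSR, HMOX1 and PRDX1 were missing. The antioxidant core stood in at least 1 window of 11 of the 30 members (36.7%) and of 16.1% of all 27305 genes in the table, and in 12 of 37 member windows (32.4%) and 13.3% of all 35116 windows. The members holding it were CBR1, EPHX1, GCLM, GPX2, GSTO1, GSTP1, KEAP1, ME1, PGD, PIR and TXNRD1. The xenobiotic core stood in 17 of 30 members (56.7%) and 40.6% of all genes, CYP1A1, AHR, NFE2L2 and NQO1 among the members, and in 0 member windows did the cores share a base. These are matches of letters, not shown to be sites, and a window without a match says nothing of a factor binding elsewhere. The members were listed as NRF2 targets and xenobiotic genes, so their higher share of the antioxidant core is no independent evidence.

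Of the 11 members that passed in some comparison, 7 were in the promoter table. The antioxidant core was held by 11 of all 30 members there, and no link between core and calls was tested. Of the 7, 4 held it, namely GSTO1, GPX2, CBR1 and KEAP1. Their matches are shown first, each as 29 bases with the core in capitals and on the strand on which the core reads. GSTP1, ME1 and PIR are added because their windows hold 1 identical core, TGACTCAGC, and 0 of these 3 passed in any comparison, whereas PIR and GSTP1 passed in other settings.
GSTO1, chr10:104254656-104254684, plus strand: ggcggagggaTGACTGAGCatttataact
GSTO1, chr10:104254721-104254749, plus strand: cgagatgcttTGACACAGCcccttaagat
GPX2, chr14:64942849-64942877, plus strand: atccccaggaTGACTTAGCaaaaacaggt
CBR1, chr21:36069855-36069883, minus strand: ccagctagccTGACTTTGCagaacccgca
KEAP1, chr19:10502784-10502812, plus strand: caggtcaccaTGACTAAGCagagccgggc
KEAP1, chr19:10502807-10502835, minus strand: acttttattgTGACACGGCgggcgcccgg
GSTP1, chr11:67583736-67583764, plus strand: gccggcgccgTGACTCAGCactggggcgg
ME1, chr6:83431170-83431198, minus strand: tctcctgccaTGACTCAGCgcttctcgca
PIR, chrX:15493289-15493317, plus strand: agcctcaccgTGACTCAGCgcttcgcggc
The core of GPX2 began at position -122 from its start and that of CBR1 at -159. For these 2 genes the 250 bases before the start are given in the direction of the gene, with the core in capitals as it reads on that strand.
GPX2, chr14:64942746-64942995, minus strand: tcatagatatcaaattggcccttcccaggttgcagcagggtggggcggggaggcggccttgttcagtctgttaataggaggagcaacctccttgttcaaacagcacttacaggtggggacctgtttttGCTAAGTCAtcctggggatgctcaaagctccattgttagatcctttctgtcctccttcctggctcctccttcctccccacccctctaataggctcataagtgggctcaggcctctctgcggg
CBR1, chr21:36069774-36070023, plus strand: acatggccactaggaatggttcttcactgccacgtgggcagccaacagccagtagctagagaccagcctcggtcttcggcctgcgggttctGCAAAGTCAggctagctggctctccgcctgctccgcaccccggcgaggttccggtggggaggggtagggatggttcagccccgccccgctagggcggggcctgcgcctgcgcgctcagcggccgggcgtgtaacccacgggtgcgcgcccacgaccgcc

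Among the regulators, the level of NFE2L2 was higher at 24 h whether or not IL-13 was present. Its deposited signal was 481, 512 and 561 at 0 h, 631, 569 and 679.9 at 4 h, 619, 583 and 533 at 12 h and 811, 762 and 742 at 24 h of IL-13. Untreated cells at 24 h had 742, 733 and 639. All arrays at 24 h, treated and untreated, lay above all arrays at 0 h, while 24 h of IL-13 and the 24 h control overlapped by a narrow margin. NFE2L2 rose by 0.51 ± 0.095 on the log2 scale in the 24 h control against 0 h (1.42-fold, limma adjusted p = 0.00799) and by 0.56 ± 0.095 after 24 h of IL-13 against 0 h (1.47-fold, adjusted p = 0.00159). The direct difference of 24 h of IL-13 from the 24 h control was 0.05, with a 95% interval from -0.15 to 0.25 (adjusted p = 0.791). With arrays scaled to 1 median, the rise in the untreated cells was 0.25 and no longer passed. NFE2L2 also rose between 12 h and 24 h of IL-13, by 0.38 ± 0.095 (adjusted p = 0.0228), a call lost when replicate b or c at 12 h, or a or b at 24 h, was left out.

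KEAP1, the adaptor that marks NRF2 for degradation, stood highest at 4 h of IL-13 and lowest at 24 h. Its signal was 224, 210.4 and 222 at 0 h, 247, 266 and 283 at 4 h, 231, 248 and 229 at 12 h and 179.8, 184 and 156 at 24 h of IL-13. Without IL-13, the values at 24 h were 184, 202 and 174. The 4 h arrays lay above, and all 24 h arrays below, the arrays at 0 h, and the 2 groups at 24 h overlapped. KEAP1 fell by 0.41 ± 0.10 between 12 h and 24 h of IL-13 (1.32-fold, adjusted p = 0.0240), and the call was not stable. It was lost when any replicate at 12 h, or replicate a or c at 24 h, was left out, with arrays scaled to 1 median, and with no other groups in the model. Against 0 h it stood at -0.28 after 24 h of IL-13 (adjusted p = 0.116) and at -0.24 in the 24 h control (adjusted p = 0.206), and the difference between these 24 h groups was -0.041 (adjusted p = 0.843). MAFG, the small MAF partner, passed in no comparison, with differences from 0 h of -0.16 at 4 h, -0.41 at 12 h (adjusted p = 0.153) and -0.33 at 24 h of IL-13 and -0.19 in the 24 h control.

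HMOX1 was higher after 24 h of IL-13 than in the 24 h control. Its signal was 750.3, 813 and 752 at 0 h, 732, 890.4 and 1028 at 4 h, 962, 950.5 and 912 at 12 h and 932, 869 and 855 at 24 h of IL-13. The 24 h control arrays had 575, 507 and 658. The 24 h IL-13 arrays all lay above the 24 h control arrays and also above the 0 h arrays, and the 24 h control arrays all lay below those at 0 h. The difference of 24 h of IL-13 from the 24 h control was 0.53 ± 0.11 (1.44-fold, adjusted p = 0.00761), and it passed in all 19 other settings, with values of 0.42 to 0.78. Against 0 h it was 0.20 after 24 h of IL-13 (adjusted p = 0.305) and -0.32 in the 24 h control (adjusted p = 0.105), and this control value passed as a fall with the deposited scaling (-0.41, adjusted p = 0.0444) and with both median scalings. FTL, at the very top of the intensity range, was held in place by the quantile normalization, with normalized differences of 0.00 to 0.026 against 0 h. Its deposited signal was 13464, 11895 and 9969.7 after 24 h of IL-13 and 12321, 12342 and 15212 in the 24 h control, and these arrays overlapped. Its other probe set, also cross-hybridizing, stood at -0.092 in this comparison.

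Of the 7 glutathione genes, GSTO1 and GPX2 were the only ones to pass in any comparison. GSTO1, which reduces and conjugates small electrophiles, had a signal of 1388, 1416 and 1455 at 0 h, 1521, 1596 and 1722 at 4 h, 1752, 1913 and 1663 at 12 h and 1735, 1539 and 1816 at 24 h of IL-13. Untreated cells at 24 h had 1188, 1272 and 1199. Every array with IL-13 lay above every array without it. The difference of 24 h of IL-13 from the 24 h control was 0.35 ± 0.073 (1.27-fold, adjusted p = 0.00856). Fitted on these 2 groups alone it had an adjusted p of 0.0509, and in all other settings tried it passed. Against 0 h, GSTO1 rose by 0.28 ± 0.073 at 12 h (adjusted p = 0.0360) and 0.26 ± 0.073 at 24 h of IL-13 (adjusted p = 0.0375), and each of these calls was lost in 11 of 19 settings, among them leaving out any 1 array of the 0 h group. In the 24 h control it stood at -0.083 from 0 h (adjusted p = 0.566), with the arrays below those at 0 h. This value was -0.22 with the deposited scaling (adjusted p = 0.149) and passed as a fall with arrays scaled to 1 median (-0.39, adjusted p = 0.0357).

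GPX2, a glutathione peroxidase of epithelia, had a signal of 1956, 1776 and 2257 at 0 h, 2244, 2258 and 2241 at 4 h, 2155, 2358 and 2319 at 12 h and 2578, 2152 and 2676 at 24 h of IL-13. Without IL-13, the values at 24 h were 2251, 2748 and 2778. On these deposited values both 24 h groups overlapped with 0 h, while the normalized values did not overlap. GPX2 rose by 0.47 ± 0.098 in the 24 h control against 0 h (1.38-fold, adjusted p = 0.0139), a call lost with both median scalings, and when replicate b at 0 h (0.37) or replicate c of the 24 h control (0.43) was left out. After 24 h of IL-13 it rose by 0.34 against 0 h (adjusted p = 0.0451), and the 2 groups at 24 h differed by -0.13 (adjusted p = 0.456). The catalytic and modifier subunits of glutamate-cysteine ligase, GCLC and GCLM, the glutathione reductase GSR and the transferases GSTP1 and GSTM3 did not pass in any comparison. After 24 h of IL-13 against the 24 h control GCLC stood at -0.063, GCLM at -0.011 and GSTP1 at 0.012, and the median over the 7 glutathione genes was 0.012. At 12 h of IL-13 against 0 h all 7 stood above zero with each of the 4 scalings, which share the same arrays. Their median was 0.15, and GSTP1 was at only 0.02. On quantile normalized values 28 of the 36 tested members and 51.5% of all tested genes stood above zero there. GSTM3 came closest, at 0.32 after 24 h of IL-13 against the 24 h control (adjusted p = 0.0640), with 213, 217 and 208 against 183, 165 and 172 and no overlap. With arrays scaled to 1 median GSTM3 passed there (0.44, adjusted p = 0.0144), and in the 24 h control against 0 h GSTM3 and GSTP1 passed as falls, at -0.40 and -0.38 (adjusted p = 0.0273 and 0.0400). GSR, which regenerates reduced glutathione, had single arrays between 284 and 748.

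The thioredoxin genes did not pass in any comparison, although TXN did in other settings. TXN, the thioredoxin itself, differed by 0.21 after 24 h of IL-13 from the 24 h control (adjusted p = 0.184) on its brighter probe set and by -0.19 on the dimmer one, and in the 24 h control against 0 h by -0.18 and 0.32. With arrays scaled to 1 median the brighter set passed in both, at 0.42 and -0.47 (adjusted p = 0.0263 and 0.0186). At 12 h of IL-13 against 0 h the dimmer set stood at 0.83, which passed when every bright enough probe set had its own test (adjusted p = 0.0167). TXNRD1, the reductase that recharges it, stood at -0.080 and the peroxiredoxin PRDX1 at 0.027 after 24 h of IL-13 against the 24 h control.

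NQO1, the quinone reductase that serves as the usual readout of NRF2, passed in no comparison. Its signal was 5802, 5849 and 6147 at 0 h, 5567, 6115 and 5880.3 at 4 h, 5421, 5619.5 and 5485 at 12 h and 6096, 4978 and 5803 at 24 h of IL-13. The 24 h control arrays had 5877, 5302 and 5176. The arrays at 24 h overlapped, and the difference between these groups was 0.076 with a 95% interval from -0.098 to 0.25 (adjusted p = 0.611). Its other probe sets stood at 0.12 and -0.11 there, and at -0.064 and 0.27 in the 24 h control against 0 h, where the brightest stood at -0.10. At 12 h of IL-13 the brightest set lay below 0 h on the deposited values, but overlapped with it on normalized values (-0.156). The other sets stood at -0.083 and 0.255 at 12 h, the latter with all arrays above those at 0 h.

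AKR1C1, a ketosteroid reductase, rose in untreated cells over 24 h on 1 of its 3 probe sets. That set had a signal of 411, 425 and 396 at 0 h, 569, 555 and 435 at 4 h, 370.3, 670.2 and 613 at 12 h and 548, 586 and 491 at 24 h of IL-13. Untreated cells at 24 h had 727, 619.5 and 653. The 24 h control arrays lay above all arrays at 0 h and at 24 h of IL-13, while the 12 h arrays were spread widely, array a below the 0 h arrays and b and c above those at 24 h of IL-13. The rise was 0.74 ± 0.16 against 0 h (1.67-fold, adjusted p = 0.0183). On the other sets, both of the cross-hybridizing kind, the difference was 0.14 and 0.11, and with the brightest set of any kind the call was lost (adjusted p = 0.279). It was also lost with arrays scaled to 1 median, and when replicate b or c at 0 h, or a or c of the 24 h control, was left out. At 4 h of IL-13 these 3 sets stood at 0.33, 0.098 and -0.17. The AKR1C genes are close copies of each other, so signal may be shared between AKR1C1, AKR1C2 and AKR1C3. AKR1C2, AKR1C3 and the retinal reductase AKR1B10 passed in no comparison, with differences of 0.004, -0.038 and -0.033 after 24 h of IL-13 against the 24 h control. When every bright enough probe set had its own test, 1 AKR1C2 set passed after 24 h of IL-13 against 0 h (0.22, adjusted p = 0.0365).

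CBR1, a carbonyl reductase, was highest at 12 h of IL-13. Its signal was 216, 230.3 and 229 at 0 h, 227, 269 and 238 at 4 h, 306, 355 and 295 at 12 h and 311, 241 and 266 at 24 h of IL-13. Without IL-13, the values at 24 h were 179.5, 224 and 219. The 12 h arrays lay above all arrays at 0 h and 4 h and all 24 h control arrays. CBR1 rose by 0.49 ± 0.12 at 12 h against 0 h (1.40-fold, adjusted p = 0.0269), and the call was lost without any 1 of the 6 arrays compared (adjusted p from 0.0534 to 0.108) and with arrays scaled to 1 median. After 24 h of IL-13 it stood 0.38 above the 24 h control (adjusted p = 0.0605), and this difference passed with arrays scaled to 1 median (0.54, adjusted p = 0.0168) or by their tested genes (0.41, adjusted p = 0.0454). Its neighbour in function CBR3 had 159.7, 141 and 154 at 12 h of IL-13 and 89.3, 66.9 and 112 at 0 h, a difference of 0.64 ± 0.21 that did not pass (adjusted p = 0.107), except with no other groups in the model (adjusted p = 0.0383).

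**Figure D4:**
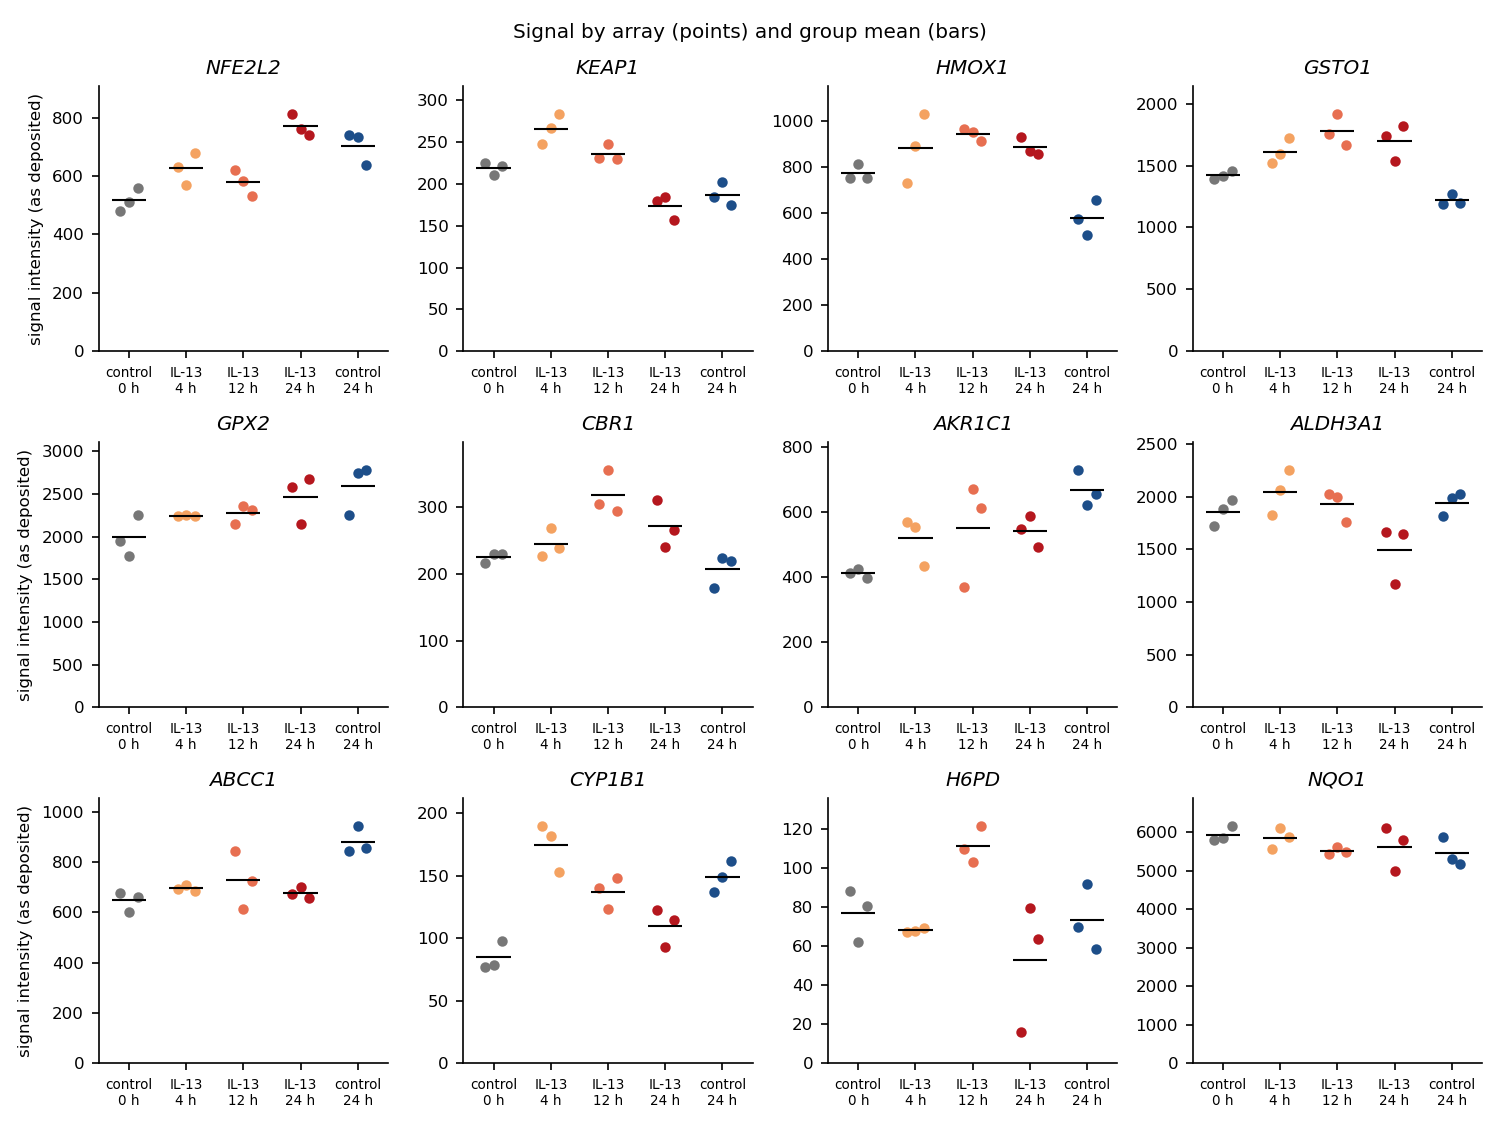
Deposited signal intensity (linear scale from 0) of 12 genes on each array, in the order control 0 h, IL-13 4 h, 12 h and 24 h, control 24 h; points are arrays and bars are group means. The HMOX1 and GSTO1 points of 24 h of IL-13 lie above the 24 h control, those of ALDH3A1 and ABCC1 below it, and NQO1 overlaps in all groups at 24 h.

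CYP1B1, a cytochrome P450 that oxidises aromatic hydrocarbons and oestrogens, rose at 4 h of IL-13, and this call held in all 17 settings in which the gene was tested. Its brightest probe set had a signal of 77.2, 79 and 98.1 at 0 h, 189, 182 and 153 at 4 h, 141, 123 and 148 at 12 h and 123, 93.3 and 115 at 24 h of IL-13. The 24 h control arrays had 137, 149 and 162. The 4 h arrays all lay above every array at 0 h, 12 h and 24 h of IL-13, while the 24 h control arrays lay above those at 24 h of IL-13. CYP1B1 rose by 0.88 ± 0.13 at 4 h (1.84-fold, adjusted p = 0.00145), by 0.56 ± 0.13 at 12 h (adjusted p = 0.0218) and by 0.60 ± 0.13 in the 24 h control against 0 h (1.51-fold, adjusted p = 0.0187). At 24 h of IL-13 it stood 0.29 above 0 h (adjusted p = 0.212) and at -0.31 from the 24 h control (adjusted p = 0.170).

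The other CYP1B1 probe sets bore on these times unequally. A second set had 127, 109 and 91.9 at 4 h of IL-13 against 39.8, 42 and 30 at 0 h, a difference of 1.13 ± 0.19 that passed when every probe set was tested without a filter (adjusted p = 0.0152). Another, the third, had 99.6, 101 and 93.1 at 4 h against 57.6, 45.3 and 61.9 at 0 h, a difference of 0.62 ± 0.14 (adjusted p = 0.0798), and the dimmest, under 15 on every array, differed by 0.18. On all 3 sets above that level the 4 h and 0 h arrays did not overlap. In the 24 h control against 0 h the second set stood at 0.21, with 59.9, 56.2 and 49.7 against 39.8, 42 and 30, and the third at 0.12, with 72.4, 73.9 and 68.6 against 57.6, 45.3 and 61.9. Neither passed. On both sets the deposited values did not overlap and the normalized values did, and the dimmest set stood at -0.11. The second set stood after 24 h of IL-13 against the 24 h control at 0.20, the third at 0.11 and the dimmest at 0.032, against -0.31 on the brightest. The 24 h call in untreated cells thus came from 1 probe set, and it was lost when replicate a or b at 0 h, or c of the 24 h control, was left out. The 12 h call was lost when replicate a or b at 0 h, or a or c at 12 h, was left out.

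**Figure D5:**
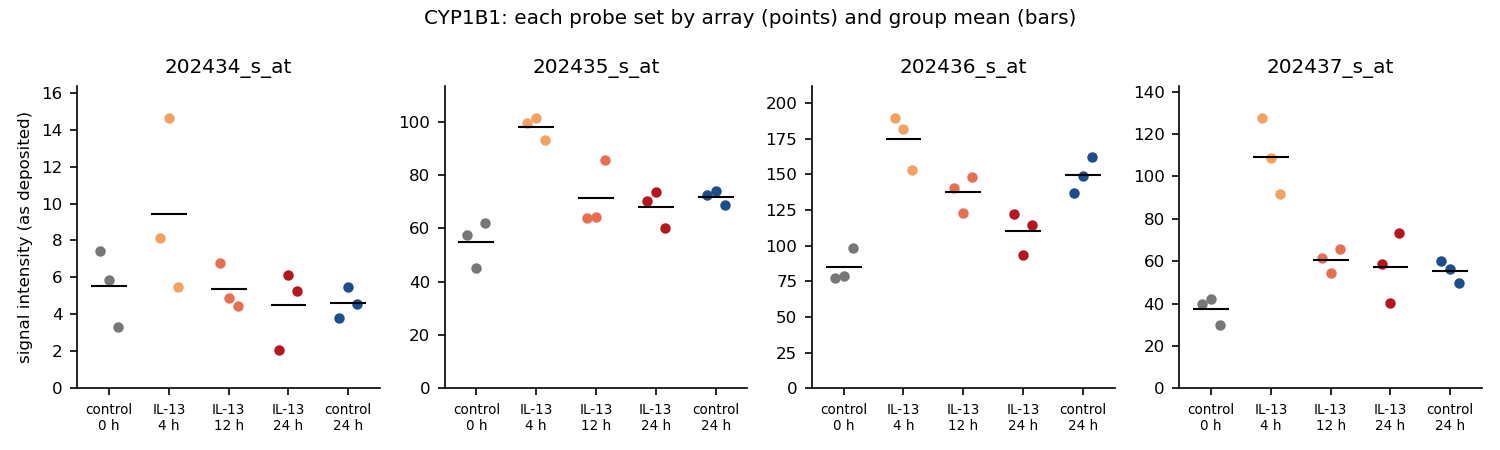
Deposited signal of the 4 CYP1B1 probe sets on each array (points) with group means (bars), each panel on its own scale from 0. In the 3 brighter sets all 4 h arrays lie above all 0 h arrays, and the 24 h control arrays do too, in the brightest set at 137 to 162 against 77.2 to 98.1. On normalized values, not shown, the 24 h control lies clear of 0 h only in the brightest set.

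AHR itself, the receptor, was too dim for the main test, with a signal of 43, 35.4 and 61 at 0 h, 52.4, 39.7 and 47.9 at 4 h, 22.2, 41.6 and 52.2 at 12 h and 111, 61.4 and 93.6 at 24 h of IL-13. Untreated cells at 24 h had 79.4, 61.1 and 82.8. The 24 h arrays with and without IL-13 overlapped each other and lay above the arrays at 4 h and 12 h. When no filter was set, 24 h of IL-13 stood 0.92 above 12 h (adjusted p = 0.0426) and 0.67 above 0 h (adjusted p = 0.143). CYP1A1, the usual AHR readout, was dimmer still, between 17.3 and 70.9 on all arrays, and after 24 h of IL-13 it stood at -0.50 from the 24 h control (adjusted p = 0.246 with no filter).

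ALDH3A1, which oxidises aromatic and lipid aldehydes, was lower after 24 h of IL-13 than in the 24 h control. Its signal was 1725, 1883 and 1965 at 0 h, 1823, 2065 and 2249 at 4 h, 2029.7, 1993 and 1761 at 12 h and 1662, 1167 and 1645 at 24 h of IL-13. Without IL-13, the values at 24 h were 1816, 1983 and 2025. All 3 arrays at 24 h of IL-13 lay below all other arrays, array b furthest. ALDH3A1 fell by 0.56 ± 0.10 against the 24 h control (1.47-fold, adjusted p = 0.00326). Without array b the fall was 0.41 (adjusted p = 0.00895). With the deposited scaling it was 0.39 and passed narrowly (adjusted p = 0.0498). The call was lost with both median scalings, at -0.22 (adjusted p = 0.347) and -0.35 (adjusted p = 0.0954). On quantile normalized values ALDH3A1 fell by 0.34 against 0 h (adjusted p = 0.0476) and by 0.36 against 12 h of IL-13 (adjusted p = 0.0382). These calls were lost in 13 and 10 of 19 settings, and without array b at 24 h the differences were -0.19 and -0.21. Of the 4 other members of this kind, 0 passed in any comparison. The aldehyde dehydrogenase ALDH1A1 stood after 24 h of IL-13 against the 24 h control at -0.076, the epoxide hydrolase EPHX1 at -0.26, UGDH, which makes UDP-glucuronate, at -0.36 and the iron-binding protein PIR at 0.39 (adjusted p = 0.0543). PIR passed there with the deposited scaling (0.41, adjusted p = 0.0385), with arrays scaled to 1 median (0.58, adjusted p = 0.00754) and with scaling on the tested genes (0.45, adjusted p = 0.0260).

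The NADPH-supplying genes PGD, TALDO1, TKT, ME1 and H6PD did not pass after 24 h of IL-13 against the 24 h control, where all 5 stood below zero, between -0.29 and -0.036. With arrays scaled to 1 median only H6PD did, at -0.29, and TALDO1 turned to 0.12 with the deposited scaling. On quantile normalized values 21 of the 36 tested members stood below zero in this comparison, and 50.3% of all tested genes stood above it. H6PD, a glucose-6-phosphate dehydrogenase of the endoplasmic reticulum, fell by 0.92 ± 0.26 between 12 h and 24 h of IL-13 (1.89-fold, adjusted p = 0.0382). Its signal was 88.3, 62.3 and 80.8 at 0 h, 67.1, 68 and 69.5 at 4 h, 110.0, 103 and 121 at 12 h and 16.2, 79.8 and 63.6 at 24 h of IL-13. The 24 h control arrays had 69.7, 91.8 and 58.6. The 12 h arrays were the highest of all and array a at 24 h of IL-13 was far below every other. Without that array the difference was -0.50 (adjusted p = 0.146), and the call was also lost when any array at 12 h was left out. ME1, malic enzyme, stood at -0.17, -0.20 and 0.037 on its 3 probe sets after 24 h of IL-13 against the 24 h control and at 0.24, 0.50 and -0.050 in the 24 h control against 0 h. TKT, transketolase, stood at 0.23 and -0.099 on its 2 sets in the 24 h control against 0 h, and GCLC at -0.026 and 0.24 on its 2 sets at 4 h of IL-13, and none of these passed.

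ABCC1, which exports glutathione conjugates, was higher in untreated cells at 24 h than in any other group. Its signal was 678, 601 and 661 at 0 h, 691, 708 and 686 at 4 h, 841, 614 and 724 at 12 h and 673, 701 and 655 at 24 h of IL-13. Untreated cells at 24 h had 844, 941 and 857. The 24 h control arrays lay above every other array, and those at 24 h of IL-13 overlapped with 0 h. ABCC1 fell by 0.48 ± 0.10 after 24 h of IL-13 against the 24 h control (1.39-fold, adjusted p = 0.00874), and it rose by 0.54 ± 0.10 in the 24 h control against 0 h (1.46-fold, adjusted p = 0.00799). The fall was lost with both median scalings (-0.20 and -0.32) and the rise with scaling to 1 array median (0.26). The other ABCC1 probe set stood at -0.27 and 0.17 in these comparisons. ABCC3, another exporter, had 893, 674 and 565 after 24 h of IL-13 and 1034, 896 and 891 in the 24 h control, a difference of -0.52 ± 0.17 that did not pass (adjusted p = 0.0751), while its dimmer probe set stood at -0.65 (adjusted p = 0.0353 with all probe sets tested). ABCC2 passed in no comparison and stood at 0.18.

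Further genes of the pathway, from lists that exclude the members, moved in small numbers. Their calls, here and in the next 2 paragraphs, are from the main setting on quantile normalized values alone. Whether they hold with another scaling or with 1 array left out is not given, and the same goes for the marker genes above. Their counts stand beside 3.94% of all tested genes rising and 3.07% falling after 24 h of IL-13 against the 24 h control, 1.73% and 1.89% in the 24 h control against 0 h, 1.55% and 2.59% at 12 h and 3.40% and 3.47% at 24 h of IL-13 against 0 h. Of 24 tested other NRF2 targets 3 rose and 0 fell after 24 h of IL-13 against the 24 h control, the hydrogen peroxide scavenger CAT by 0.48 ± 0.12, the biliverdin reductase BLVRB by 0.39 ± 0.10 and the malic enzyme ME2 by 0.33 ± 0.090 (adjusted p = 0.0252, 0.0286 and 0.0337). SLC7A11, the cystine importer, rose by 0.66 ± 0.12 in the 24 h control (adjusted p = 0.00819) and by 0.50 ± 0.12 after 24 h of IL-13 (adjusted p = 0.0204), each against 0 h, and did not differ beyond the threshold between them. CAT (0.69 ± 0.12) and BLVRB (0.35 ± 0.10) also rose after 24 h of IL-13 against 0 h, and at 4 h and 12 h none of the 24 passed. Of 10 tested other NRF2 regulators and partners only the related factor NFE2L1 passed against a control, falling by 0.53 ± 0.14 at 12 h of IL-13 against 0 h (adjusted p = 0.0356).

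Among 14 tested other peroxide and thiol enzymes, the constitutive heme oxygenase HMOX2 rose by 0.68 ± 0.16 and GPX1, the main cytosolic glutathione peroxidase, by 0.44 ± 0.12 after 24 h of IL-13 against the 24 h control (adjusted p = 0.0143 and 0.0342). HMOX2 had fallen by 0.60 ± 0.16 in the 24 h control against 0 h (adjusted p = 0.0382). Of 15 tested other conjugating enzymes NNMT, which methylates nicotinamide, and the microsomal transferase MGST3 rose after 24 h of IL-13 against the 24 h control, by 0.44 ± 0.093 and 0.47 ± 0.12 (adjusted p = 0.00856 and 0.0223). NNMT also rose against 0 h at 12 h (0.58 ± 0.093) and 24 h of IL-13 (0.79 ± 0.093) and in the 24 h control (0.36 ± 0.093). Of 16 tested other oxidising and reducing enzymes POR, the electron donor of microsomal P450 enzymes, rose by 0.49 ± 0.14 and ALDH3B1 by 0.44 ± 0.12, while CYP24A1, which inactivates vitamin D, fell by 0.53 ± 0.12 after 24 h of IL-13 against the 24 h control. In the 24 h control against 0 h CYP24A1 and DHRS3 rose by 0.86 ± 0.12 and 0.84 ± 0.17, and CYB5A rose by 0.55 ± 0.15 after 24 h of IL-13 against 0 h.

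Of 4 tested AHR partners and targets, TIPARP, a target, and HSP90AB1, a chaperone of the receptor, fell after 24 h of IL-13 against the 24 h control, by 0.47 ± 0.12 and 0.31 ± 0.084 (adjusted p = 0.0294 and 0.0334). HSP90AB1 also fell by 0.53 ± 0.084 against 0 h. Of 12 tested other genes of NADPH supply, the mitochondrial folate enzyme MTHFD2 fell by 0.66 ± 0.091 at 4 h and 0.97 ± 0.091 at 12 h of IL-13 against 0 h (adjusted p = 0.000818 and 8.88e-06), with 959.7, 1018 and 898.9 at 4 h and 776.3, 794.1 and 692.1 at 12 h against 1490, 1580 and 1492 at 0 h. At 24 h of IL-13 it was at 1747, 1448 and 1820, and at 1618, 1447 and 1494 in the 24 h control, which overlapped.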

How the data were processed

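Total RNA was measured on 15 arrays, and the values deposited by the authors are linear signal intensity for 22283 probe sets. Summarisation and scaling by the authors are not given in the sources used here. Array means after trimming 2% at each end lie between 150.04 and 150.06. Gene names came from the platform annotation: 19065 probe sets carry 1 symbol, 1043 several, 2107 none and 68 are controls.

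To each value 20 was added (the 25th percentile overall), log2 was taken and, since array medians differed by up to 0.27 log2, the arrays were quantile normalized. Each gene was represented by its probe set with the highest mean, with cross-hybridizing _x_at sets used only where no other exists. Genes were tested if their mean log2 signal passed 6.33 (the 50th percentile of non-control probe sets), 6884 of 11963. The test was limma 3.58.1 in R 4.3.3, with a mean for each group, all 15 arrays (10 residual df), a variance trend, two-sided moderated tests and Benjamini-Hochberg adjustment over all tested genes. The threshold was an adjusted p under 0.05. Differences are on the log2(signal + 20) scale, which understates changes of dim genes. With 3 arrays in each group, array number limits the precision.

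The members and all other gene lists were chosen with earlier results of these data known. The 7 comparisons were 24 h of IL-13 against the 24 h control, the 24 h control against 0 h, each IL-13 time against 0 h, and the later against the earlier IL-13 times. Array values are given for members past the threshold in any comparison and for NFE2L2, KEAP1, AHR, NQO1 and HMOX1. Members whose probe sets differ in sign are given with all their sets, and genes of other lists are named when past the threshold in 1 of the first 5 comparisons. Other settings tried were the deposited scaling, scaling on the array median or on the median of the tested genes, pseudocounts of 1 and 62, the filter removed or set at the 75th percentile, probe sets averaged per gene or each tested alone, the brightest probe set of any kind (added after the data were seen), a model of the compared groups alone, a constant prior variance, a block for the replicate letter, and every array left out in turn. The steps were tested on simulated data. Promoter windows of 300 bases came from RefSeq (GRCh38.p14).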

Additional observations from a re-analysis of the deposited data

Results flagged for a closer look

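For 3 members the 24 h arrays with and without IL-13 lay on opposite sides of those at 0 h on normalized values, and the direct difference between the 24 h groups passed the limma test. The share of all tested genes placed in this way is not given here. Without overlap, 13.7% of all tested genes were higher and 13.0% lower after 24 h of IL-13 against 0 h. In the 24 h control 12.2% were higher and 12.6% lower. HMOX1 differed by 0.526 between 24 h of IL-13 and the 24 h control, with all treated arrays above and all untreated arrays below those at 0 h. GSTO1 differed by 0.346, with its arrays placed in the same way. ALDH3A1 differed by -0.556, with all treated arrays below and all untreated arrays above those at 0 h. On deposited values the untreated ALDH3A1 arrays overlapped with 0 h. The direct ALDH3A1 difference between the 24 h groups did not pass with arrays scaled to 1 median or with scaling on the tested genes. On quantile normalized values none of the 3 passed the limma test in the 24 h control against 0 h (adjusted p = 0.105 for HMOX1, 0.566 for GSTO1 and 0.257 for ALDH3A1). HMOX1 passed there as a fall with the deposited scaling, with arrays scaled to 1 median and with scaling on the tested genes (adjusted p = 0.0444, 0.00959 and 0.0308), and GSTO1 did with arrays scaled to 1 median (-0.39, adjusted p = 0.0357). No cause was tested.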

How the results depend on the processing

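No called member changed direction in any of up to 19 other settings. After 24 h of IL-13 against the 24 h control 4 members passed, and 4 to 7 did when 1 array was left out (7 without control 24 h array b). All-gene shares with 1 array left out are not given, so such member counts, here and above, are not results particular to the members. With the filter at the 75th percentile or with the mean of probe sets 7 passed, and the share of all genes passing under these 2 settings is not given here. In the 24 h control against 0 h 5 passed, and 2 to 5 with 1 array left out. At 4 h of IL-13 the 1 call, CYP1B1, became 0 under the same 2 settings, where the gene was too dim to be tested; it was 1 to 1 with 1 array left out. At 12 h of IL-13 3 passed, 1 with median scaling and 0 to 1 with 1 array left out. After 24 h of IL-13 against 0 h 4 passed; 1 did with the deposited scaling, either median scaling, only the compared groups or no variance trend, 2 with no filter, and 1 to 3 with 1 array left out (1 when replicate a or b at 0 h, or c at 24 h, was left out). Between 24 h and 12 h of IL-13 4 passed, 2 with median scaling, 2 with only the compared groups (NFE2L2 and, not among the 4, CBR3), and 0 to 3 with 1 array left out. The cause was not tested. All-gene counts moved with the setting too: against the 24 h control from 482 to 1016 with median scaling and 243 with only both groups, and in the 24 h control against 0 h from 249 to 869, 378 with tested-gene median scaling, 155 with no filter and 418 with every probe set tested. The labels do not say whether the replicate letters pair the arrays. Same-letter deviations correlated at -0.23 to 0.11 (median -0.002) and different letters at -0.18 to 0.27. With 3 arrays in each group these correlations cannot exclude that a letter marks a shared culture or batch. With the replicate block 2 members passed after 24 h of IL-13 against 0 h, in place of 4.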
